A study of Mus musculus with 2 samples.

Results

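The 8 genes described here encode 4 secreted ADAMTS proteases (Adamts1, Adamts4, Adamts5 and Adamts9), the membrane-bound metalloproteinase Mmp14 and 3 tissue inhibitors of metalloproteinases (Timp1, Timp2 and Timp3). They were taken by symbol from the 32285 gene IDs of the count matrices, and all 8 were found. They were chosen because of how they differed between these same libraries, so the differences below describe the 2 libraries and were not tested. The data are single-cell RNA counts of lung cells from wild-type C57BL/6 mice, with 1 library per group. Control mice were injected with PBS, and the other mice with 400000 B16-F10 cells, a mouse skin melanoma line labelled with a green tracker dye, in 100 µl of PBS. Both went in by the tail vein, and lungs were taken after 6 h. Both libraries were sorted for ECs, endothelial cells, by surface Pecam1 and by the lack of the leukocyte antigen Ptprc, and dyed melanoma cells were added to the B16-F10 library alone. The labels give 2 mice per treatment and the methods of the study 3 mice pooled per sample, so each group is 1 pool with no replicate error.

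ADAMTS proteases are secreted zinc enzymes that bind the extracellular matrix through thrombospondin-type repeats. Adamts1, Adamts4, Adamts5 and Adamts9 cut the large proteoglycans versican and aggrecan and are therefore called hyalectanases. Mmp14 sits in the plasma membrane, cuts collagen and other matrix proteins at the cell surface, and activates pro-Mmp2 together with Timp2. TIMPs bind the active site of metalloproteinases, and Timp3 differs from the other family members in that it is held in the matrix. Timp3 also inhibits ADAMTS and ADAM enzymes. In ECs, Adamts1 and Timp3 are best known as brakes on angiogenesis.

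The control library held 85794655 unique molecular identifiers (UMIs, 1 per captured RNA molecule) and the B16-F10 library 104978816. The limits were 1000 to 5000 detected genes and a mitochondrial share below 20%, and after removal of doublets they left 7830 control and 7767 B16-F10 cells, with 18 barcodes that occurred in both libraries. Of these cells, 7034 and 6242 were ECs by their markers. They were clustered without the 8 genes and named from marker lists as general capillary (gCap-like, 4822 control and 4359 B16-F10 cells), aerocyte capillary (aCap-like, 1446 and 969), artery-like (237 and 181), vein-like (287 and 280) and lymphatic (LEC-like, 58 and 51) cells. All 8 endothelial markers were detected in each class, at a summed level of 5163 to 13553 UMIs per 1000000 (CPM). Clusters that carried markers of ECs and of another cell type were kept apart and made up 9.85% of control and 17.1% of B16-F10 cells. The gCap-like cells of the 2 libraries fell differently over 6 clusters. The cluster led by Chrm2 and Vegfc held 1069 control and 1206 B16-F10 cells, that led by Hey1 and Ankrd63 held 1398 and 546, and that led by Lalba and Tmem252 held 66 and 933. Of the aCap-like cells, the cluster led by Tmeff2 and Rgs6 held 507 control and 66 B16-F10 cells. Each value below is therefore followed, where it matters, by the values within these clusters. CPM and log2 ratios (B16-F10 over control) carry exact 95% intervals that cover counting error only, neither the spread between cells nor that between mice. Markers of other cells also moved: in vein-like ECs the 5 red cell markers summed to 515 and 3550 CPM (none at 0 in either library) and the 5 neutrophil markers to 0.991 and 6.98 CPM (4 and 1 at 0), and their part in the results was not tested.

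**Figure D1:**
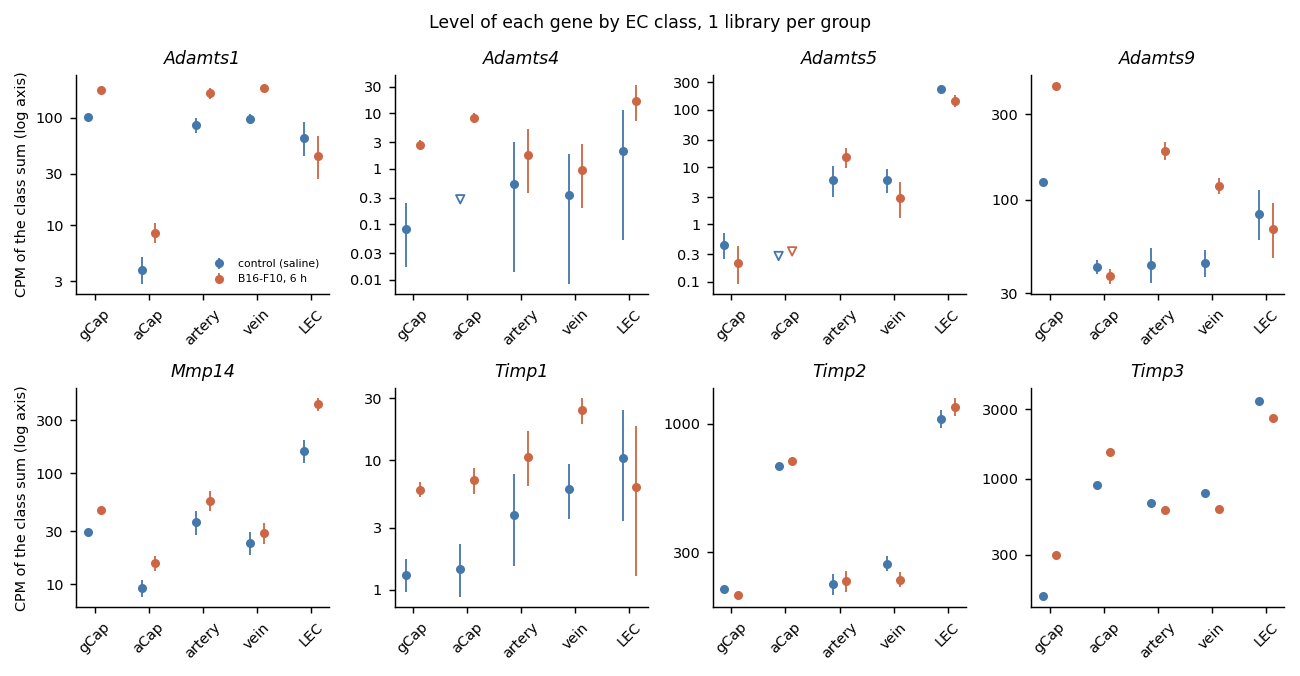
CPM of each gene (log axis) in 5 EC classes of the control (blue) and B16-F10 (orange) library, with exact Poisson 95% intervals. Open triangles mark the upper limit where no UMI was found. Adamts1 and Adamts9 were higher after B16-F10 in gCap, artery and vein, and Timp3 was higher in gCap and aCap and lower in vein and LEC.

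In gCap-like ECs, 7 of the 8 genes had at least 50 UMIs over both libraries, the minimum for a gene to be counted. Of these 7, 6 were at least 1.5-fold higher after B16-F10 (Adamts1, Adamts4, Adamts9, Mmp14, Timp1 and Timp3) and 0 were lower, and Timp2 was near its control level. The remaining member, Adamts5, had 24 UMIs in all. Among all 13213 genes counted in the class, 7.4% were higher and 9.39% were lower by that size. At 2-fold, 3 members were higher (Adamts4, Adamts9 and Timp1) and 0 lower, against 2.93% and 2.6% of all genes. As the genes were chosen for this difference, nothing is read from the excess. The median log2 ratio of the 7 genes was 0.93, against -0.04 over all genes. In aCap-like ECs, where 6.42% of genes were higher and 8.09% lower, 5 of 7 counted members were higher and 0 lower. The counts were 3 of 5 in artery-like ECs (7.94% of all genes higher and 7.05% lower), 3 of 6 in vein-like ECs (5.42% higher and 5.74% lower), and 1 of 6 in LEC-like ECs (8.4%), where 1 of 6 was lower (8.42%). Over all ECs, 6 of 8 were higher and 1 lower, Adamts5, against 8.01% and 11.2% of all genes.

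Adamts1 (ENSMUSG00000022893) encodes a protease that cuts versican and binds VEGF. It lies on the minus strand of chr16:85793827-85803113 (GRCm38, the build called mm10). Its UMIs in gCap-like ECs numbered 3671 in the control library (102 CPM, interval 98.6 to 105) and 6893 in the B16-F10 library (182 CPM, 177 to 186). The B16-F10 level was 1.78-fold the control level (log2 ratio 0.83, 0.78 to 0.89). Vein-like ECs went from 97.1 to 187 CPM (log2 ratio 0.94, 0.74 to 1.15), so the size was near that in gCap. Among the 136 control and 90 B16-F10 vein-like cells without a UMI of other cell types, the log2 ratio was 0.58 (0.25 to 0.91). Artery-like ECs had 158 and 284 UMIs, 85.1 and 168 CPM (log2 ratio 0.98, 0.69 to 1.27). There, 98 of the 284 B16-F10 UMIs came from 1 cell, and the log2 ratio was 0.49 (0.17 to 0.82) without the richest cell of each library. aCap-like ECs held little Adamts1, at 3.82 CPM in control and 8.46 CPM after B16-F10 (50 and 92 UMIs, log2 ratio 1.15, 0.64 to 1.67). Among aCap-like cells without a UMI of other cell types the log2 ratio was 0.50 (-0.32 to 1.30). Free RNA from broken cells was estimated to supply 14.8% and 20.96% of those aCap levels, against 0.690% and 1.23% of the gCap levels. LEC-like ECs had 31 and 21 UMIs (log2 ratio -0.56, -1.44 to 0.28), an interval that spans no difference. In control ECs the classes other than aCap were in order gCap, vein, artery and LEC, each overlapping its neighbour in its counting interval, and aCap was below them all.

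The promoters of Adamts1, Adamts9 and Timp1 are shown because these genes were all at least 1.5-fold higher in gCap-like and vein-like ECs and have a RefSeq entry. Each is the 250 bases before the RefSeq start in GRCm38.p6, 5′ to 3′ on the strand of the gene, with every match to the GC box GGGCGG, on either strand, in capitals:
Adamts1 (chr16:85803114-85803363, minus strand): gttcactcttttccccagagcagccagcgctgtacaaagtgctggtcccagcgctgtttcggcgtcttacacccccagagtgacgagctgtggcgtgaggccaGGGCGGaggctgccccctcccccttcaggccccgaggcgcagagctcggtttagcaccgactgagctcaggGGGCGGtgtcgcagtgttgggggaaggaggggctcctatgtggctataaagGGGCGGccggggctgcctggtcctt
Adamts9 (chr6:92943535-92943784, minus strand): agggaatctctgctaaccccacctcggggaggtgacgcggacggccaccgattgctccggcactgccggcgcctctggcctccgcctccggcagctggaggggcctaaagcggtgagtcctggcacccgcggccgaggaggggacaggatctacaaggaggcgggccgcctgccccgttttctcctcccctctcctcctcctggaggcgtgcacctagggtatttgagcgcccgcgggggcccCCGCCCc
Timp1 (chrX:20869916-20870165, plus strand): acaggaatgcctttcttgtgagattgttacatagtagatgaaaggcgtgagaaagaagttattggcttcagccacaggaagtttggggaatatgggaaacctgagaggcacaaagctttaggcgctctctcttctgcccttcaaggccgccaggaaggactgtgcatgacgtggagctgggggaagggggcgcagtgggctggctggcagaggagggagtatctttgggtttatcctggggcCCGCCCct
Adamts1 held 3 GC boxes in this window, and Adamts9 and Timp1 held 1 each within 10 bases of the start. The 6 members with an entry each held at least 1 GC box, a motif found in 32.9% of 27025 promoter windows of the same length. The letters of the AP-1 motif TGANTCA (6.87% of windows), the cyclic AMP response element TGACGTCA (1.62%), the STAT motif TTCNNNGAA (7.18%) and an NF-kB motif (0.94%) were searched on both strands and were in none of the 6 windows. A motif match is a description of letters and not of a bound factor. The promoter table has no entry for Adamts4 or Adamts5.

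Adamts4 (ENSMUSG00000006403, chr1:171250421-171260637, plus strand) encodes an aggrecanase that is induced in inflamed tissue. It was almost absent in control gCap-like ECs, with 3 UMIs, and had 101 UMIs after B16-F10 (0.0832 and 2.66 CPM). The ratio was 32.0-fold, with a counting interval of 10.6 to 158 because of the low control count. Of the 101 UMIs, 82 lay in the cluster led by Lalba and Tmem252, and without it the log2 ratio was 2.94 (1.18 to 5.34) in place of 4.999. In aCap-like ECs the UMIs were 0 and 89, which is a log2 ratio of 5.16 with the control set to a floor of 3 UMIs, and the exact lower limit of the ratio is 4.83 (4.39 without the richest cell). These 89 UMIs came from 19 of 969 cells, and 23 of them from 1 cell. Artery-like and vein-like ECs each had 1 and 3 UMIs, and LEC-like ECs had 1 and 8 (log2 ratio 3.00, 0.10 to 8.47). In gCap-like ECs 3 control and 63 B16-F10 cells had a UMI, so few cells held Adamts4 in either library.

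Most Adamts4 in the B16-F10 library was found in ECs without a vessel class. A cluster led by Sox9 and Csf2, with 12 control and 372 B16-F10 cells, held 548 of the 756 Adamts4 UMIs of all ECs in that library, at 148 CPM. Adamts4 was among the 10 leading genes of this cluster, so its level there is a description of the cluster. All 8 endothelial markers were present in its B16-F10 cells, at a summed 8422 CPM, and gCap markers at 4726 CPM. In these 372 cells Mmp14 was at 273 CPM (1010 UMIs), Timp1 at 78.2 CPM (289 UMIs), Adamts1 at 394 CPM and Timp3 at 1540 CPM. Each of the 4 was above its gCap-like level of the same library, which was 46.4, 5.93, 182 and 297 CPM. Timp2 was lower there than in gCap-like ECs, at 89.0 against 201 CPM. The 12 control cells of this cluster gave 0 UMIs of Mmp14 and of Timp1. They gave 70 UMIs of Adamts1 (663 CPM) and 147 of Timp3 (1391 CPM), so these 2 genes were also high in its control cells. These are too few cells for a comparison between libraries. A cluster that comes almost entirely from 1 library may be that library and not a cell type.

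Adamts5 (ENSMUSG00000022894, chr16:85856173-85901828, minus strand) is the neighbour of Adamts1, with 53059 bases and no other protein-coding gene between them, and encodes the main aggrecanase of cartilage. In contrast to Adamts1 it was found chiefly in LEC-like ECs, at 229 CPM in control and 141 CPM after B16-F10 (110 and 68 UMIs). The log2 ratio in LEC-like ECs was -0.70 (-1.15 to -0.25), and 36 of the 110 control UMIs and 23 of the 68 B16-F10 UMIs came from 1 cell each. Without those cells the log2 ratio was -0.70 (-1.27 to -0.14), and with cells thinned to 2000 UMIs it was -0.46 (-1.46 to 0.50). Artery-like ECs had 11 and 25 UMIs (log2 ratio 1.32, 0.24 to 2.49), but all 25 B16-F10 UMIs came from 1 cell. In gCap-like ECs there were 16 and 8 UMIs, of which free RNA was estimated to supply 16.2% and 21.04%. Vein-like ECs had 18 and 9 UMIs. In aCap-like ECs there were 0 UMIs in both libraries, with upper exact Poisson limits of 0.282 and 0.339 CPM. The 2 neighbouring genes thus had unlike distributions over the EC classes: LEC was the class with the most Adamts5 in both libraries, whereas gCap and vein had the most Adamts1.

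Adamts9 (ENSMUSG00000030022, chr6:92772699-92943492, minus strand) encodes the most conserved protease of the family, which cuts versican and is needed in heart and vessel development. The study lists it among the markers of a reactive capillary cluster, chosen partly on these libraries, so its direction here is not independent evidence. By RT-qPCR, a PCR assay of RNA, on isolated lung ECs measured per mouse, the study also reports it as higher after melanoma injection. In gCap-like ECs it went from 4516 to 16381 UMIs, or from 125 CPM (122 to 129) to 432 CPM (425 to 438). This is 3.45-fold (log2 ratio 1.78, 1.74 to 1.83). Artery-like ECs went from 43.1 to 187 CPM (80 and 317 UMIs, log2 ratio 2.12, 1.76 to 2.49), and the log2 ratio was 0.93 with classes from each cell's own markers and 3.07 with finer clusters. Vein-like ECs went from 44.3 to 119 CPM (134 and 374 UMIs, log2 ratio 1.42, 1.13 to 1.72). Among vein-like cells without a UMI of other cell types the log2 ratio of Adamts9 was 0.39 (-0.08 to 0.86), below 1.5-fold. aCap-like ECs were the exception among blood vessel classes, at 42.1 and 37.3 CPM (552 and 406 UMIs, log2 ratio -0.18, -0.36 to 0.01). Within the aCap cluster led by Ccdc184 and Rprml, which held 939 and 903 cells, the log2 ratio was 0.12 (-0.09 to 0.33). In the cluster led by Tmeff2 and Rgs6 it was -0.92 (-1.90 to -0.09), at 71.7 and 37.8 CPM (196 and 12 UMIs). LEC-like ECs had 83.2 and 68.6 CPM (40 and 33 UMIs), within counting error of each other. In control ECs, gCap had the highest level and vein, artery and aCap overlapped, whereas after B16-F10 the order was gCap, artery, vein, LEC and aCap with no overlap between neighbours. A730049H05Rik lies across Adamts9 on the opposite strand and was at 8.49 and 17.5 CPM in gCap-like ECs (log2 ratio 1.05, 0.85 to 1.25). The use of strand in counting is not given in the sources used here, and the part of overlapping reads in either level was not tested.

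Mmp14 (ENSMUSG00000000957, chr14:54431612-54445364, plus strand), the membrane-type protease, was higher in the B16-F10 library in each class. gCap-like ECs had 1065 and 1760 UMIs, 29.5 CPM (27.8 to 31.4) and 46.4 CPM (44.2 to 48.6), a log2 ratio of 0.65 (0.54 to 0.76), or 0.42 (0.19 to 0.64) with cells thinned to 2000 UMIs. aCap-like ECs had 9.16 and 15.5 CPM (log2 ratio 0.76, 0.42 to 1.11, or 0.38 after thinning) and artery-like ECs 36.1 and 56.2 CPM (0.64, 0.17 to 1.11). In vein-like ECs the levels were 23.5 and 28.9 CPM, and the interval of the log2 ratio, -0.16 to 0.77, spans no difference. The largest class difference was in LEC-like ECs, where 58 control cells gave 76 UMIs and 51 B16-F10 cells gave 201 (158 and 418 CPM, log2 ratio 1.40, 1.01 to 1.80). There, 39 control and 40 B16-F10 cells had a UMI, and the log2 ratio was 1.43 without the richest cell of each library. LEC was also the class with the highest Mmp14 level in both libraries. The artery-like log2 ratio was 0.48 with doublets kept and turned to -0.29 when cells were assigned to classes by their own marker UMIs.

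Timp1 (ENSMUSG00000001131, chrX:20870166-20874735, plus strand), a secreted inhibitor that is induced in many inflamed tissues, was rare in ECs. In gCap-like ECs it went from 47 to 225 UMIs (1.30 and 5.93 CPM, log2 ratio 2.19, 1.73 to 2.67). Vein-like ECs went from 5.95 CPM in control to 24.1 CPM after B16-F10 (18 and 76 UMIs, log2 ratio 2.02, 1.27 to 2.85). Among the named classes they had the highest level after B16-F10. In control, LEC-like ECs were highest at 10.4 CPM, with an interval that overlaps that of vein-like ECs. In aCap-like ECs there were 19 and 76 UMIs (log2 ratio 2.27, 1.53 to 3.08), of which 1 B16-F10 cell held 29, and without the richest cells the log2 ratio was 1.74. The share of aCap-like cells with Timp1, at 2000 UMIs per cell, was 0.560% in control and 0.519% after B16-F10, and the log2 ratio of the thinned UMIs was 0.38 (-1.32 to 2.03). At 4000 UMIs per cell the shares were 0.490% and 1.08%, and without thinning 1.24% and 3.41%, so the aCap-like difference changed with thinning. Artery-like ECs had 7 and 18 UMIs and LEC-like ECs 5 and 3. Artery-like and LEC-like ECs were under the minimum of 50 UMIs, so neither is counted as higher or lower. Outside the named classes, the cluster that carried fibroblast as well as EC markers, led by Dcn and Clec3b, went from 3 to 109 UMIs of Timp1 in 64 and 89 cells, 5.64 and 136 CPM. Fibroblast markers in gCap-like ECs summed to 6.13 and 10.3 CPM (1 of 6 at 0 in both libraries), against 1740 and 4017 CPM in that cluster, and their part in the Timp1 of gCap-like ECs was not tested. Myeloid markers in gCap-like ECs summed to 14.3 and 28.6 CPM. Timp1 lies within Syn1, which is on the opposite strand, shares no exonic bases with it and had 6 and 15 UMIs in gCap-like ECs.

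Timp2 (ENSMUSG00000017466, chr11:118301069-118355740, minus strand), the inhibitor that takes part in pro-Mmp2 activation, was the member that differed least. gCap-like ECs had 7669 and 7632 UMIs, 213 CPM (208 to 217) and 201 CPM (197 to 206), a log2 ratio of -0.08 (-0.13 to -0.04). aCap-like ECs had 675 and 710 CPM (log2 ratio 0.07, 0.03 to 0.12), artery-like ECs 223 and 229 CPM, and LEC-like ECs 1048 and 1176 CPM (0.17, -0.01 to 0.34). The vein-like ECs were lower, at 270 and 233 CPM (log2 ratio -0.21, -0.36 to -0.07). No class differed by 1.5-fold in either direction, and the order of the classes by Timp2 level was LEC, aCap, vein, artery and gCap in both libraries, with overlap of artery and gCap in control and of vein and artery after B16-F10.

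Timp3 (ENSMUSG00000020044, chr10:86300372-86349506, plus strand), the matrix-bound inhibitor, was higher after B16-F10 in both capillary classes and lower in vein-like and LEC-like ECs. gCap-like ECs held 5620 control and 11259 B16-F10 UMIs (156 and 297 CPM), with a log2 ratio of 0.93 (0.88 to 0.97). aCap-like ECs held 11836 and 16544 UMIs (903 and 1521 CPM), with a log2 ratio of 0.75 (0.72 to 0.79). Within the aCap cluster led by Ccdc184 and Rprml it was 0.71 (0.67 to 0.74). In that led by Tmeff2 and Rgs6, with 507 control and 66 B16-F10 cells, it was 0.21 (0.02 to 0.39). In vein-like ECs it was lower, at 802 and 613 CPM (log2 ratio -0.39, -0.47 to -0.30, and -0.40 among cells without a UMI of other cell types), and in LEC-like ECs likewise, at 3433 and 2614 CPM (-0.39, -0.50 to -0.29). Artery-like ECs had 684 and 611 CPM (-0.16, -0.28 to -0.04), but 158 of the 1269 control UMIs came from 1 cell, and the log2 ratio was -0.01 (-0.13 to 0.12) without the richest cell of each library. No neighbouring classes had overlapping intervals in control, in the order LEC, aCap, vein, artery and gCap. After B16-F10 the order was the same, with vein and artery overlapping. Timp3 lies within Syn3, which is on the opposite strand and shares exonic bases with it. Syn3 was at 14.0 and 20.98 CPM in gCap-like ECs (log2 ratio 0.58), at 62.0 and 86.0 CPM in aCap-like ECs (0.47), at 57.6 and 29.6 CPM in artery-like ECs (-0.96), at 51.5 and 31.4 CPM in vein-like ECs (-0.71) and at 243 and 168 CPM in LEC-like ECs (-0.53). Syn3 was thus below Timp3 and had the same sign in each of the 5 classes, and the part of overlapping reads in either level was not tested.

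**Figure D2:**
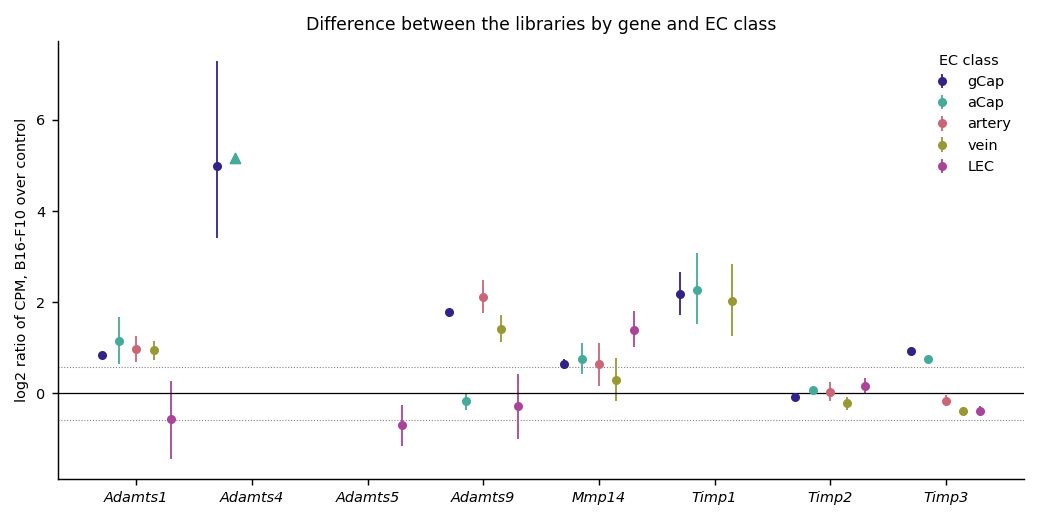
Log2 ratio of CPM, B16-F10 over control, for genes with at least 50 UMIs over both libraries in a class, with exact 95% intervals for counting error. Dotted lines mark 1.5-fold and the triangle marks a floor for Adamts4 in aCap, where control had 0 UMIs. Adamts9 was near 0 in aCap and above 1.4 in gCap, artery and vein, and Timp3 was above 0.7 in both capillary classes and below 0 elsewhere.

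The gCap-like class holds clusters of different size in the 2 libraries, and the members were compared within each of its 6 clusters. Adamts1, Adamts9, Mmp14 and Timp3 had a log2 ratio above 0 in all 6. The interval reached 0 for Mmp14 in the cluster led by Gm20631 and Adgrl3 (-0.15 to 0.71) and for Timp3 in that led by Ntrk2 and Sema3c (-0.02 to 0.20). The log2 ratio ranged from 0.37 to 0.86 for Adamts1, from 0.42 to 2.22 for Adamts9, from 0.28 to 1.34 for Mmp14 and from 0.09 to 1.86 for Timp3. Timp2 was higher in 2 and lower in 4 of the clusters, between -0.24 and 0.19. The cluster led by Lalba and Tmem252 stood apart. It made up 1.37% of control and 21.4% of B16-F10 gCap-like cells, and in the B16-F10 library it held 61.7% of Adamts9, 49.7% of Timp3, 63.1% of Timp1 and 81.2% of Adamts4 UMIs of the class, but 16.8% of Timp2 UMIs. Its Adamts9 level was 250 CPM in 66 control cells and 1166 CPM in 933 B16-F10 cells, and its Timp3 level was 178 and 646 CPM. Adamts9 was not used in the clustering but was among the leading genes ranked afterwards, so the first of these levels is a description of the cluster. Adamts1 was spread more evenly, with 31.6% of its UMIs in that cluster.

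Without the cluster led by Lalba and Tmem252, the log2 ratio of Adamts9 in the remaining gCap-like ECs was 0.80 (0.74 to 0.85) in place of 1.78, and that of Timp3 was 0.31 (0.26 to 0.37) in place of 0.93. Mmp14 went from 0.65 to 0.46, Timp1 from 2.19 to 1.19 and Adamts1 from 0.83 to 0.67. Adamts4 went from 4.999 to 2.94. Each of these 6 log2 ratios stayed above 0, with counting intervals that did not reach 0. Those of Timp3 and Mmp14 were then below 1.5-fold, the size by which a gene is counted as higher. Timp2 was at 0.02 (-0.03 to 0.07).

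**Figure D3:**
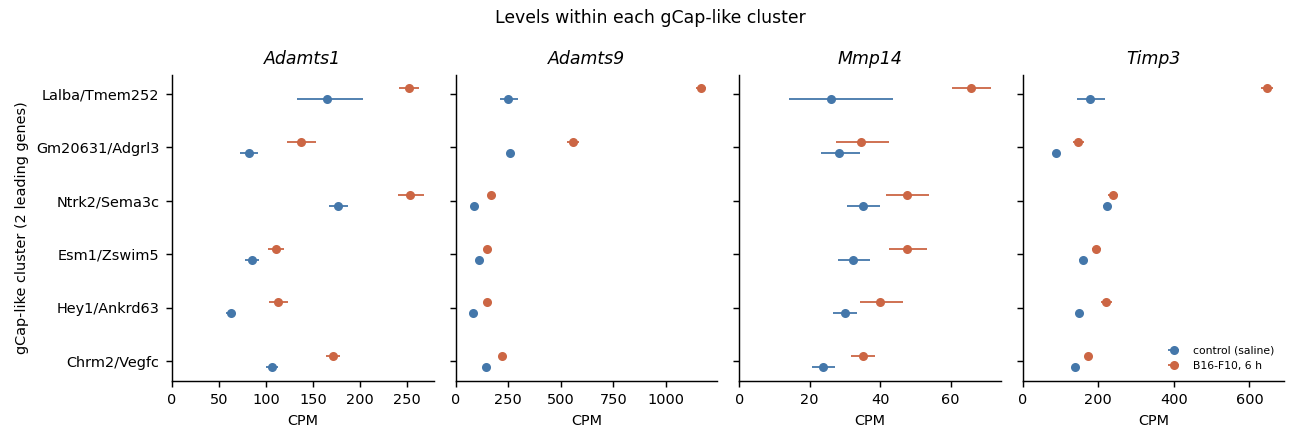
CPM of Adamts1, Adamts9, Mmp14 and Timp3 within each of the 6 gCap-like clusters, named by their 2 leading genes, with exact Poisson 95% intervals. In the Lalba/Tmem252 cluster Adamts9 reached 1166 CPM and Timp3 646 CPM after B16-F10, and Adamts1 was higher after B16-F10 in each of the 6 clusters.

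Shares of cells with a UMI were compared after each cell was thinned to 2000 UMIs, because the median gCap-like cell had 7292 UMIs in control and 8406 after B16-F10. Thinning left out 63 control and 28 B16-F10 cells. Adamts9 was found in 19.0% of control and 37.4% of B16-F10 gCap-like cells, a difference of 18.4 percentage points (16.5 to 20.2). Timp3 went from 21.7% to 31.3% (9.61 points, 7.79 to 11.4) and Adamts1 from 15.9% to 23.8% (7.83 points, 6.19 to 9.47). Both the share of cells and the CPM were therefore higher for these 3 genes. Mmp14 went from 5.65% to 7.85%, Timp1 from 0.147% to 1.02% and Adamts4 from 0.0210% to 0.485%. Timp2 went from 33.6% to 31.5% (-2.11 points, -4.03 to -0.18). Without thinning the shares were 35.2% and 54.3% for Adamts1. In the aCap-like class, where the Adamts1 level was low, 0.910% and 1.87% of thinned cells had it, at medians of 9156 and 11361 UMIs before thinning, below the gCap-like shares of 15.9% and 23.8%. For Timp3 the aCap-like shares were 68.3% and 80.2%. For Adamts9 they were 8.05% and 7.06%.

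**Figure D4:**
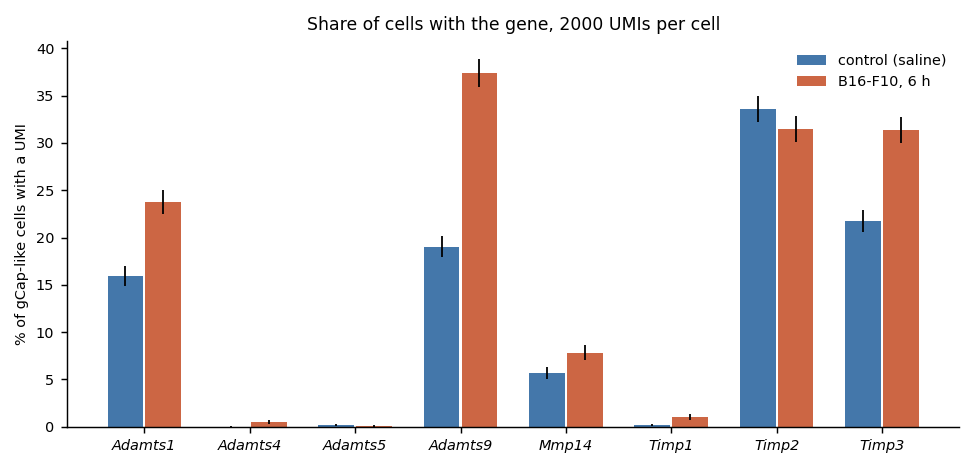
Share of gCap-like cells with at least 1 UMI of each gene after thinning to 2000 UMIs per cell (bars from 0, exact Clopper-Pearson 95% intervals). Adamts9 went from 19.0% to 37.4% and Timp3 from 21.7% to 31.3%, while Timp2 went from 33.6% to 31.5%.

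Detection of Adamts9 and Timp3 in the same cell was counted in each library. In the thinned B16-F10 gCap-like cells, Timp3 was detected in 38.6% of the 1620 cells with Adamts9 and in 27.0% of the 2711 cells without it. In control cells the shares were 20.2% of 906 and 22.1% of 3853. These shares pool all gCap-like clusters. The cluster led by Lalba and Tmem252 made up 1.37% of control and 21.4% of B16-F10 gCap-like cells. In the B16-F10 library it held 61.7% of Adamts9 and 49.7% of Timp3 UMIs of the class. Its part in the shares was not tested. For Timp3 and Adamts1 the B16-F10 shares were 32.1% and 31.1%, close to each other. The cells of 1 library are not replicates, so no test was made of these shares.

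In the 79 melanoma-like cells of the B16-F10 library, taken by their melanoma markers, Adamts9 had 3 UMIs and Timp3 25 (3.56 and 29.7 CPM). Mmp14 was at 40.3 CPM, Timp2 at 112 CPM and Adamts1 at 22.5 CPM. Melanoma-like cells therefore held less Adamts9, Timp3, Adamts1 and Timp2 per UMI than gCap-like ECs of the same library. Timp1 (8 UMIs, 9.49 CPM) and Adamts4 (4 UMIs, 4.75 CPM) were above the gCap-like levels of 5.93 and 2.66 CPM, which lie within their counting intervals. Melanoma markers in gCap-like ECs summed to 27.2 CPM in control, with 2 of 8 at 0, and 54.5 CPM after B16-F10, with none at 0, against 19442 CPM in the melanoma-like cells.

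The other genes of the pathway differed in both directions in gCap-like ECs. Among all 13213 genes counted in the class, 7.4% were higher and 9.39% lower by 1.5-fold. The lists are short, and nothing is read from their counts. Of 15 other ADAMTS proteases, 5 had enough UMIs, 0 were higher and 2 lower by 1.5-fold: Adamts17 went from 1.80 to 0.448 CPM (log2 ratio -2.01) and Adamts18 from 1.08 to 0.553 CPM (-0.97). ADAMTS-like proteins, which resemble ADAMTS proteins but lack the protease domain, had 3 of 5 higher and 1 lower. Adamtsl2, a binder of latent TGF-beta binding protein, went from 2.02 to 6.75 CPM (1.74), Adamtsl4 from 5.21 to 9.62 CPM (0.88) and Adamtsl5 from 1.89 to 3.32 CPM (0.82), whereas Adamtsl1 went from 3.19 to 2.00 CPM (-0.67). Of 7 counted matrix metalloproteinases other than Mmp14, 1 was higher, Mmp11 (1.44 and 2.37 CPM, 0.72), and 3 were lower. The 3 lower ones were Mmp28, the most abundant of the list (72.3 and 41.2 CPM, -0.81), Mmp16, a membrane-type protease like Mmp14 (4.83 and 2.74 CPM, -0.82), and Mmp19 (2.47 and 1.40 CPM, -0.82). The membrane-type proteases Mmp14 and Mmp16 thus differed in opposite directions.

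Among inhibitors outside the TIMPs listed above, Tfpi2 (1.83 and 0.975 CPM, -0.91) and Serpine2 (1.97 and 1.29 CPM, -0.61) were lower. Of the ADAM sheddases, membrane proteases that cut surface proteins, 3 of 7 were higher and 1 lower, against 7.4% and 9.39% of all genes. Adam9 went from 33.0 to 64.2 CPM (0.96), Adam19 from 10.1 to 17.5 CPM (0.80) and Adam12 from 6.55 to 10.9 CPM (0.73), and Adam23, which lacks protease activity, from 16.9 to 7.11 CPM (-1.25). Versican (Vcan), the substrate shared by the 4 ADAMTS proteases, was the only hyalectan or link protein gene counted in gCap-like ECs, with 24 and 67 UMIs (0.666 and 1.77 CPM, log2 ratio 1.41, 0.72 to 2.14). Of 9 counted activation, uptake and binding partners, the matrix glycoprotein Thbs1 (0.79) and the heparan sulphate proteoglycan Sdc4 (0.69) were higher and 0 were lower.

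**Figure D5:**
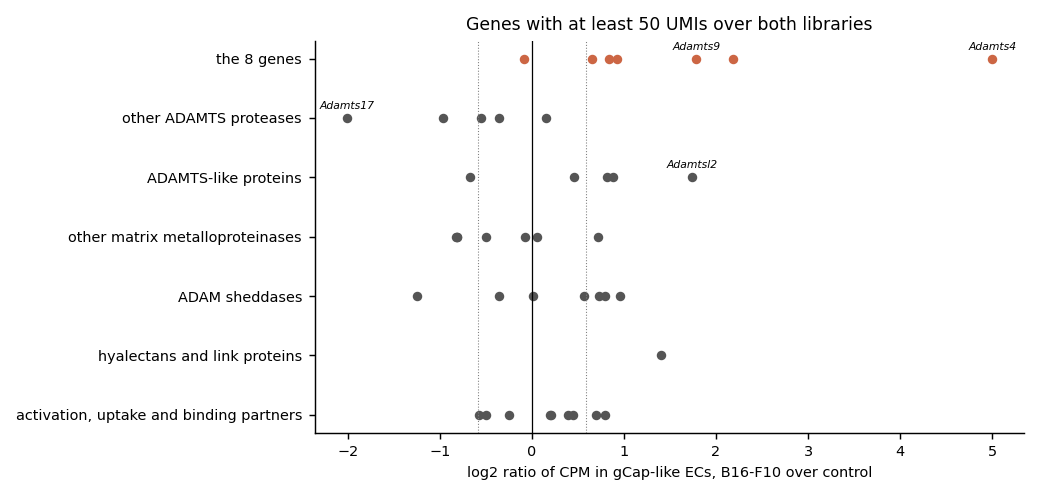
Log2 ratio of CPM in gCap-like ECs, B16-F10 over control, for each gene with at least 50 UMIs over both libraries, by list, without the inhibitors other than TIMPs. Dotted lines mark 1.5-fold. Of the 7 counted members (orange), which were chosen for this difference, 6 lie above the upper line. The other ADAMTS proteases, a list without the members, have 0 genes above it and 2 below the lower line. With a minimum of 10 UMIs, 4 of 11 other ADAMTS proteases were higher and 2 lower, so nothing is read from the contrast.

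Over the 10 sums of 5 EC classes and 2 libraries, the gene most like each member by Pearson's r of log2(CPM + 1) among 11805 genes was Itga5 for Adamts1 (r = 0.98), Cap1 for Adamts4 (0.92), Cd55 for Adamts5 (0.99), Prkch for Adamts9 (0.95), Tpr for Mmp14 (0.98), Tlr2 for Timp1 (0.93), Plau for Timp2 (0.99) and Syn3, its overlapping neighbour, for Timp3 (0.98). The next genes were Plvap and Sp110 for Adamts1, Pkhd1l1 and Serping1 for Adamts5, and Fgfr1 and Fth1 for Timp3. These 10 sums share 2 libraries and their depth, so the values describe likeness of pattern only.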

How the data were processed

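The deposited matrices hold raw UMI counts per gene and barcode for all barcodes, with no normalization by the authors. The submitters' processing notes name Cell Ranger 7.2.0, while the methods of the study name an earlier version, and the labels name a v2 kit. Reads were aligned to mm10, and whether intronic reads or strand were used is not given in the sources used here. Cells were kept by the gene and mitochondrial limits of the study, 564 and 554 top-scoring barcodes of Scrublet were removed as doublets (scanpy 1.11.5), and 22 clusters were made with leidenalg 0.10.2 at resolution 0.8 on 2802 variable genes without the members, the pathway lists and the response genes of the study. Clusters were named from fixed markers. Sums of UMIs over the cells of a class gave CPM, and exact Poisson, conditional binomial, Clopper-Pearson and Newcombe intervals were computed with scipy 1.17.1. No test is possible on single libraries. Genes counted had at least 50 UMIs, and called means at least 1.5-fold. Named pathway genes were those called with an interval that excludes 0, at most 4 per list. Scripts were tested on simulated data. Of the gene IDs, 32158 were found in GENCODE M21 (GRCm38), the source of gene coordinates, and promoters come from RefSeq. The members and lists were chosen with earlier results of these data known. Results for some items are not reported here.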

Additional observations from a re-analysis of the deposited data

Results flagged for a closer look

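Timp3 had opposite signs in different EC classes, with log2 ratios of 0.93 in gCap-like and 0.75 in aCap-like ECs against -0.16 (artery-like), -0.39 (vein-like) and -0.39 (LEC-like). The artery-like value was -0.01 (-0.13 to 0.12) without the richest cell of each library. Timp2 did so at a small size, with 0.072 in aCap-like, -0.081 in gCap-like and -0.21 in vein-like ECs. Without the cluster led by Lalba and Tmem252 the gCap-like value was 0.02 (-0.03 to 0.07). Within aCap it was 0.05 (0.01 to 0.10) in the cluster led by Ccdc184 and Rprml. In that led by Tmeff2 and Rgs6 it was -0.28 (-0.52 to -0.05). Adamts5 had 1.32 in artery-like ECs, from 1 cell after B16-F10, and -0.70 in LEC-like ECs. With 1 library per group, the differences between classes were not tested.

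Barcodes with 1 to 100 UMIs, which hold free RNA and enter no comparison above, also differed between the libraries. In the B16-F10 library they held Adamts1 at 103 CPM, Adamts4 at 6.70 CPM, Adamts9 at 131 CPM, Mmp14 at 36.7 CPM and Timp1 at 16.02 CPM, against 46.5, 0.176, 44.6, 24.2 and 2.82 CPM in control. Timp3 was at 405 CPM there and 419 CPM in control.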

How the results depend on the processing

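Of 632 alternative values for 62 results, 542 stayed within the interval or 1.5 times of the reported value, 87 moved and 3 turned direction from a difference that had been past 1.5-fold, or for a share from one whose interval did not reach 0. The 3 were Adamts5 in artery-like ECs after thinning to 2000 UMIs (-0.62), Mmp14 in artery-like ECs with classes from markers per cell (-0.29) and the share of cells with Timp2 without thinning (1.83 points). Smaller or uncertain values also changed sign: Adamts9 in aCap-like ECs (0.11 with no upper limit of genes, 0.02 with doublets kept and 0.12 without clusters under 5000 UMIs), Timp3 in artery-like ECs (0.13 at 500 genes), Timp2 in vein-like ECs (0.056 thinned) and in artery-like ECs (down to -0.14), and in LEC-like ECs Timp1 (0.19 thinned) and, in 23 and 11 cells without a UMI of other cell types, Adamts1 (0.97) and Adamts9 (0.82). In gCap-like ECs, classes from markers per cell gave log2 ratios of 0.94 for Adamts1, 1.64 for Adamts9, 1.13 for Mmp14, 3.21 for Timp1 and 1.07 for Timp3. Thinning to 2000 UMIs gave 0.75 for Adamts1, 1.71 for Adamts9, 0.42 for Mmp14 and 2.91 for Timp1. All ECs summed gave 1.05 for Adamts1, 1.64 for Adamts9, 1.18 for Mmp14, 2.78 for Timp1, -0.14 for Timp2 and 0.60 for Timp3. Resolution 1.6 gave 1.99 for Adamts9 and 1.08 for Timp3, cells without a UMI of other cell types 1.88 and 0.87, at least 500 genes per cell -0.14 for Timp2 and 1.08 for Timp3, doublets kept 0.99 for Timp3, and clusters under a median of 5000 UMIs left out, chosen after seeing the data, 1.94 for Adamts9. Leaving out the richest cell of each library was also chosen after seeing the data.

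Without thinning the shares differed by 19.2 points for Adamts1, 1.38 for Adamts4, 24.995 for Adamts9, 10.8 for Mmp14, 2.96 for Timp1 and 15.1 for Timp3. At 4000 UMIs they differed by 12.7 for Adamts1, 21.6 for Adamts9, 5.56 for Mmp14 and 1.52 for Timp1. With 2-fold as the limit, 3 members were higher, 1 other ADAMTS protease lower, and 1 ADAMTS-like protein higher and 0 lower. At that limit 0 other matrix metalloproteinases were higher and 0 lower, and 0 other inhibitors were lower. For ADAM sheddases 0 were higher and 1 lower, and 0 partners were higher. Of all genes counted in gCap-like ECs, 2.93% were higher and 2.6% lower by that size. With a minimum of 10 UMIs, 1 of 8 members (Adamts5) was lower. Of 11 other ADAMTS proteases 4 were higher and 2 lower, of 9 other matrix metalloproteinases 2 and 3, and of 11 partners 4 and 0. With median-of-ratios scaling 1 other inhibitor was lower. The cause was not tested, other than that a higher fold or lower minimum changes how many genes can be counted. Leaving out clusters with medians under 4000 UMIs and 2000 genes removed 1 cluster, with EC and red cell markers, and changed no class value. No paired analysis was possible because a single library stands for either group. Depth limits Adamts4 in artery-like and vein-like ECs, with 1 and 3 UMIs each, and Timp1 in LEC-like ECs, with 5 and 3.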
